A study of Mus musculus with 36 samples.

Results

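TBP summits at the ends of noncoding genes and pseudogenes made up about 1 in 20 TBP sites of mouse embryonic stem (ES) cells, and those at small nuclear RNA (snRNA) genes ranked above those at long noncoding RNA (lncRNA) genes in every list. The members were the nuclear summits of the deposited TBP peak lists with an end of at least 1 RefSeq gene within 500 bp, where none of those ends belonged to a protein-coding or tRNA gene, nor to Rmrp, Rpph1, Rn7sk or a Y RNA gene. They numbered 129 of 2664 summits in RT7 cells given ethanol (EtOH), 72 of 1377 in RT7 cells given 4-hydroxytamoxifen (4-OHT), 157 of 3100 in RT10 EtOH cells and 108 of 2186 in RT10 4-OHT cells. In all they were 466 of 9327 summits.

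CUT&RUN, in which a tethered nuclease cuts the DNA around an antibody-bound protein, was used to map TBP and TFIID subunits in 36 libraries of 20 groups. RT7 cells have the genotype R26CreERT2/+;Taf7flox/flox and RT10 cells R26CreERT2/+;Taf10flox/flox, so that the EtOH controls also carry the floxed alleles and the Cre. Both lines were grown in serum medium with leukemia inhibitory factor and 2 kinase inhibitors (CHIR99021 and PD0325901), and treatment ran between day 1 and day 3. Each line and treatment had 2 TBP libraries and 1 IgG library but only 1 peak list, and whether the libraries were pooled for it is not stated. The labels do not say whether a line is 1 clone, and the loss of TAF7 or TAF10 was not checked, since lists for these subunits were not analysed here. The TBP lists hold no expression values, so the cells' identity as ES cells was not checked. With 1 list per group no treatment difference had a replicate check or a test. The deposited score of a summit is the −log10 q-value of TBP over IgG. It was used to rank summits within a list, as a percentile of that list, and scores of different lists are given side by side without comparison.

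TBP, the TATA-binding protein, takes part in transcription by all 3 nuclear RNA polymerases. In TFIID, with its TAF subunits, it serves RNA polymerase II promoters, which include those of protein-coding genes, lncRNAs and the hosts of small nucleolar RNAs (snoRNAs). Genes for most spliceosomal snRNAs are short, present in many copies and transcribed by RNA polymerase II with TBP recruited through the SNAPc complex, whereas U6 snRNA, 5S rRNA and tRNAs are made by RNA polymerase III. Many snoRNAs are cut from the introns of host transcripts whose exons are not translated.

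The following RefSeq promoter windows (build GRCm38.p6, the assembly also called mm10) are shown because they belong to members with a TATA-like element near the start. Each runs from 250 bases before to 50 bases after the annotated start, 5′ to 3′ on the gene's strand, with TATAAA or TATATAA of either strand in capitals. The windows are Snhg5 (chr9:88522848-88523147, minus strand), Snhg7 (chr2:26640195-26640494, minus), Snhg8 (chr3:123508287-123508586, minus), Snhg12 (chr4:132308428-132308727, plus), Gm51018 (chr3:127544839-127545138, plus), 1110038B12Rik (chr17:34952422-34952721, minus) and, for contrast, Snhg9 (chr17:24719916-24720215, minus), whose matches lie elsewhere in the window.
Snhg5: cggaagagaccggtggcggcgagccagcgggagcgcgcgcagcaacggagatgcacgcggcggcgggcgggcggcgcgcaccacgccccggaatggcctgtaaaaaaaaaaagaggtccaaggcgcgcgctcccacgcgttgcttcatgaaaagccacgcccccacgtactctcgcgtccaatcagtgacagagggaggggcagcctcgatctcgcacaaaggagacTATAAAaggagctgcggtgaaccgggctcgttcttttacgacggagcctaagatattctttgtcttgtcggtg
Snhg7: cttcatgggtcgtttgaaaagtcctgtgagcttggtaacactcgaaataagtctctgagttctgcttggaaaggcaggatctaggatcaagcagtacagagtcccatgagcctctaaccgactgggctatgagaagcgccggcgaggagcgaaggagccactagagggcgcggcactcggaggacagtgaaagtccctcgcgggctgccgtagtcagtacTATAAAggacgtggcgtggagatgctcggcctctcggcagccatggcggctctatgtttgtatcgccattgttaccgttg
Snhg8: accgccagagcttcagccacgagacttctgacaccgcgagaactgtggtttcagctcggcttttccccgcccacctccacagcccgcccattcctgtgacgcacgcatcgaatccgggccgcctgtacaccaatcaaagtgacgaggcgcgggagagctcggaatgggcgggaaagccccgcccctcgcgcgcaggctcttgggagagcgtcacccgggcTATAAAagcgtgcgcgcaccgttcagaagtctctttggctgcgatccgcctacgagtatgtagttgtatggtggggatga
Snhg12: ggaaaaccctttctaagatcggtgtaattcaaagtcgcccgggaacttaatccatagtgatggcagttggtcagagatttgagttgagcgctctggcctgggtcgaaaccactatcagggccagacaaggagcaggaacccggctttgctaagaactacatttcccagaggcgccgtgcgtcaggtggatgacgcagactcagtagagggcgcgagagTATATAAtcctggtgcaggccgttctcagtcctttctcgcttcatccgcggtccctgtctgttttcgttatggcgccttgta
Gm51018: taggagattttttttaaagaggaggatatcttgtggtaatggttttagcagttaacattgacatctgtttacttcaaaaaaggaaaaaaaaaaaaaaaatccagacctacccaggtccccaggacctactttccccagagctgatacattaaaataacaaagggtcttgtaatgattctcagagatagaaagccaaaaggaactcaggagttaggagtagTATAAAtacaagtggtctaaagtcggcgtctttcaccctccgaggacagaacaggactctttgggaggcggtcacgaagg
1110038B12Rik: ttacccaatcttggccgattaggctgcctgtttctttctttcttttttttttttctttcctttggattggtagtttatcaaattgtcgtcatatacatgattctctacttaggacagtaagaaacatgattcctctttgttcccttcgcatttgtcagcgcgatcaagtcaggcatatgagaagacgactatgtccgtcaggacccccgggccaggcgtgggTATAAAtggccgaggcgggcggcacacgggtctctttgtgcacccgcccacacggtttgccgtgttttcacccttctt
Snhg9: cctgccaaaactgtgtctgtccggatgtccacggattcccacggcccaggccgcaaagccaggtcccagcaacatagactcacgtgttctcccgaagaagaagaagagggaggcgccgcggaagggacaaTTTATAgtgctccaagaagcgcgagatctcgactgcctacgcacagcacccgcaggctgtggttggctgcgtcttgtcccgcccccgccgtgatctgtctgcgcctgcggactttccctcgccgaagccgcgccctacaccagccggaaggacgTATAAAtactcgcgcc

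The match began 23 bases before the start in Snhg5, 30 bases before it in Snhg7, Snhg8 and Gm51018, 32 bases before it in Snhg12 and 28 bases before it in 1110038B12Rik. In Snhg9 TATAAA began 34 bases after the start, and on the other strand it lay 120 to 115 bases before it. The Snhg genes host snoRNAs, and Gm51018 is the lncRNA whose annotated span holds the microRNA genes Mir302b and Mir302c. E330020D12Rik and 2610035D17Rik also had such a match, beginning 28 and 33 bases before the start, and are not printed. Their summits had low scores. E330020D12Rik scored 2.44 in RT10 EtOH and 3.68 in RT10 4-OHT, and 2610035D17Rik scored 1.41 in RT10 EtOH. A match is a run of letters and was not tested as a TBP site.

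By the type of the nearest gene end, lncRNA genes gave most members, with 85 summits in RT7 EtOH, 43 in RT7 4-OHT, 104 in RT10 EtOH and 66 in RT10 4-OHT. snRNA genes followed with 41, 25, 41 and 33. The snoRNA class held 2 summits in each RT10 list and none in the RT7 lists. With any end within 500 bp counted, and not only the nearest, 3, 2, 5 and 3 members had a snoRNA gene end. Pseudogenes had 5 summits in RT10 EtOH and 1 in RT10 4-OHT. Another 3, 4, 5 and 6 summits lay at other RNA genes, such as the telomerase RNA gene Terc. The order of the classes lncRNA and snRNA was the same in every list. As shares of all nuclear summits the members came to 4.84% (exact 95% binomial interval 4.06 to 5.73), 5.23% (4.11 to 6.54), 5.06% (4.32 to 5.9) and 4.94% (4.07 to 5.93), in the order RT7 EtOH, RT7 4-OHT, RT10 EtOH and RT10 4-OHT. These intervals, like all others here, cover counting error only, and they overlapped.

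**Figure D1:**
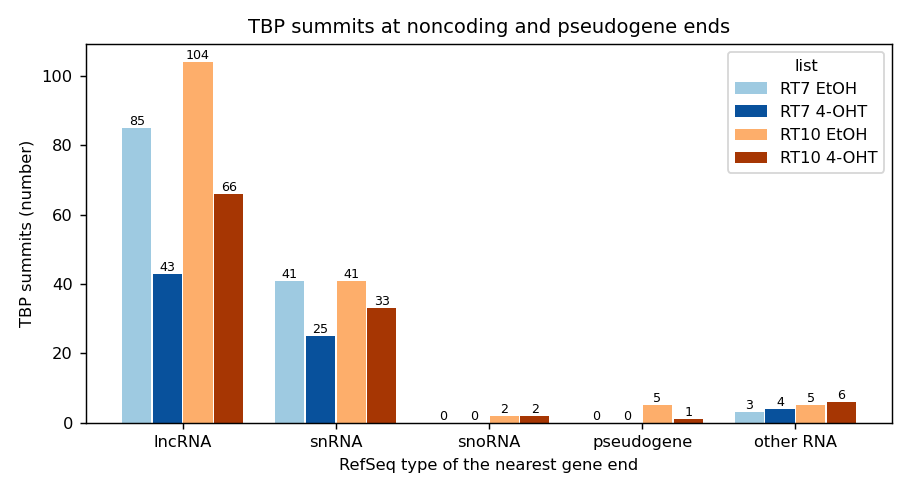
Number of TBP summits (vertical axis) by the RefSeq type of the nearest gene end (horizontal axis) in the 4 lists. Bars are counts from 1 list each, without replicates; lncRNA bars run from 43 to 104 and snRNA bars from 25 to 41.

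Set against the annotation, few of these genes were occupied. Of 12727 lncRNA genes in the RefSeq table, 145 (1.14%, 0.962 to 1.34) had a member summit in at least 1 list, against 35 of 1004 snRNA genes (3.49%, 2.44 to 4.82), 6 of 1340 snoRNA genes (0.448%, 0.164 to 0.972) and 5 of 10609 pseudogenes (0.0471%, 0.0153 to 0.11). The snRNA share lay above the other shares with intervals that did not overlap. Neighbouring genes can share a summit, and copies of a gene are not independent. Ends of protein-coding genes were barred by the rule, so genes beside one are missing from these counts: with every summit allowed, 321 lncRNA, 39 snRNA, 14 snoRNA and 15 pseudogene genes had one.

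snRNA summits ranked higher within their lists than lncRNA summits did. The median percentile of snRNA members was 60.3 in RT7 EtOH, 64.1 in RT7 4-OHT, 67.8 in RT10 EtOH and 71.3 in RT10 4-OHT, and that of lncRNA members 47.6, 34.1, 44.7 and 45.7. For reference, summits at protein-coding ends had medians of 54.4, 52.9, 52.8 and 54.0, summits at tRNA gene ends 84.6, 80.5, 88.4 and 89.1, and summits with no gene end nearby 42.9, 42.0, 44.7 and 42.9. The snRNA medians thus lay between those of protein-coding and tRNA ends in all 4 lists. The lncRNA medians lay below those of protein-coding ends in all 4.

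The 35 occupied snRNA genes came in 13 annotated lengths, and 24 of them had 1 of 4 lengths (107, 116, 164 and 191 bp). These lengths were taken from occupied genes, and 443 of all 1004 snRNA genes have them. Of the 561 genes of other lengths 11 were occupied. Of 9 genes of 116 bp, the length of the U5 gene Rnu5g, 7 had a member summit. Of 15 genes of 191 bp, 10 had one, and of 34 genes of 164 bp, the length of the U1 gene Rnu1a1, 3 did. U5 and U1 are core RNAs of the spliceosome, as is U2, whose gene Rnu2-10 has 187 bp. The 5 U3 genes not typed as pseudogenes, for an RNA that acts in the nucleolus on pre-rRNA but is typed as snRNA in the table, all had member summits in all 4 lists (Rnu3a, Rnu3b1, Rnu3b2, Rnu3b3 and Rnu3b4). By contrast 4 of 385 genes of 107 bp had one, each in all 4 lists (Gm26243, Gm25064, Gm23296 and LOC115488100). The sources used here do not state how reads that match several copies were handled, so the assignment among near-identical copies is uncertain.

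The highest score of the members in every list stood near Gm26243, a 107 bp snRNA gene model (chromosome 10, 79985506 to 79985612). Its summits had scores of 68.9 in RT7 EtOH, 76.5 in RT7 4-OHT, 101 in RT10 EtOH and 58.4 in RT10 4-OHT, and lay 428, 432, 454 and 424 bp from the gene. They were thus at percentiles of 99.5, 99.9, 99.8 and 99.1, near the edge of the 500 bp limit on 1 side of the gene. The nearest end of a protein-coding gene, Tmem259, was 757 bp away.

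Rnu5g (chromosome 9, 65201726 to 65201841) scored 29.4, 17.7, 27.4 and 19.1 in the same order of lists. The RT7 EtOH and RT7 4-OHT summits lay 42 and 55 bp outside the gene, the RT10 EtOH summit lay 1 bp outside it and the RT10 4-OHT summit 8 bp inside it. Their percentiles were 94.4, 88.8, 92.9 and 88.1.

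Rnu2-10 (chromosome 11, 101658238 to 101658424) was flanked by summits on both sides in each list. On the lower-coordinate side, 348 to 391 bp away, the scores were 35.8, 4.37, 11.3 and 27.0. On the other side, 42 to 121 bp away, they were 16.1, 12.7, 21.1 and 41.1. The order of the 2 flanks differed among the lists: the lower-coordinate summit had the higher score in RT7 EtOH alone.

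Rnu1a1 (chromosome 11, 87422867 to 87423030) scored 11.5, 10.8, 19.6 and 26.8. It opens an array of snRNA genes at 87422867 to 87471582, inside the span of the protein-coding gene Tex14, in which 6 of 7 genes were occupied in every list. In this array Rnu3b1 had the highest score in RT7 EtOH (19.4), RT7 4-OHT (12.3) and RT10 EtOH (22.6). In RT10 4-OHT it scored 19.9, below Rnu1a1. Rnu3b4 ranged from 1.84 in RT7 4-OHT to 15.5 in RT10 EtOH. Further arrays held 5 of 5 occupied genes on chromosome 11 (101604850 to 101658424), 4 of 4 on chromosome 1 (72226240 to 72255198), 3 of 3 on chromosome 4 (117189942 to 117210959) and 2 of 2 each on chromosomes 9 and 12. The chromosome 1 array, of 191 bp genes, had 3, 1, 3 and 3 occupied members in the 4 lists. The 2 copies with the fewest lists there were Gm23472, in RT7 EtOH alone, and Gm25939, in both RT10 lists but neither RT7 list.

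Rnu11 and Rnu12, the genes of the U11 and U12 RNAs of the minor spliceosome, had summits in every list. Rnu12 (chromosome 15, 83149645 to 83149794) scored 11.5, 5.76, 17.7 and 12.3, but only the summit of RT10 EtOH met the rule, since the others also had a protein-coding end within 500 bp. Rnu11 (chromosome 4, 132270079 to 132270186) had highest scores of 4.68, 2.78, 6.4 and 8.24. Over the fixed list of 23 genes with Rnu symbols, 11 had a summit in each list, and 9, 9, 10 and 9 had one that met the rule. Of 74 genes with U6 or 5S symbols none had a summit in any list. The search was by symbol and did not cover gene models named Gm or LOC, such as the 4 occupied genes of 107 bp. It therefore does not show whether U6 copies among those models were occupied.

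TBP summits stood mostly beside snRNA genes: 5 of 140 snRNA summits fell inside the gene. These genes are short against the 500 bp searched on each side, so most of the positions searched lay outside them. For 17 of 35 genes all summits outside the gene were on 1 side, for 17 they were on both, and for 1 there were only inside summits. The gene table gives no strand, so sides could not be called upstream or downstream, and no snRNA gene sequence was used here.

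At lncRNA genes with a start in the promoter table, most summits lay within 500 bp of a start. This share is partly built in, since the rule required a gene end within 500 bp and a start can be that end. No expected share was computed. Such a start was known for 72 of 85 lncRNA members in RT7 EtOH and 38 of 43 in RT7 4-OHT. In RT10 it was known for 88 of 104 with EtOH and 59 of 66 with 4-OHT. The rest were left out. Of the members at lncRNA ends whose gene had a start in the promoter table, 60 of 72 in RT7 EtOH lay within 500 bp of a start (83.3%, 72.7 to 91.1), 32 of 38 in RT7 4-OHT (84.2%, 68.7 to 94.0), 72 of 88 in RT10 EtOH (81.8%, 72.2 to 89.2) and 46 of 59 in RT10 4-OHT (78.0%, 65.3 to 87.7). The median signed distance, negative upstream, was −44, 35, −64 and −108 bp. Upstream summits outnumbered downstream ones in 3 lists, with 36 against 24 in RT7 EtOH, 43 against 29 in RT10 EtOH and 29 against 17 in RT10 4-OHT, and in RT7 4-OHT the counts were 14 and 18. The rule bars the outer ends of protein-coding genes but not their inner starts: 13, 5, 17 and 9 members lay within 500 bp of an inner protein-coding start, or 10.1%, 6.94%, 10.8% and 8.33%.

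**Figure D2:**
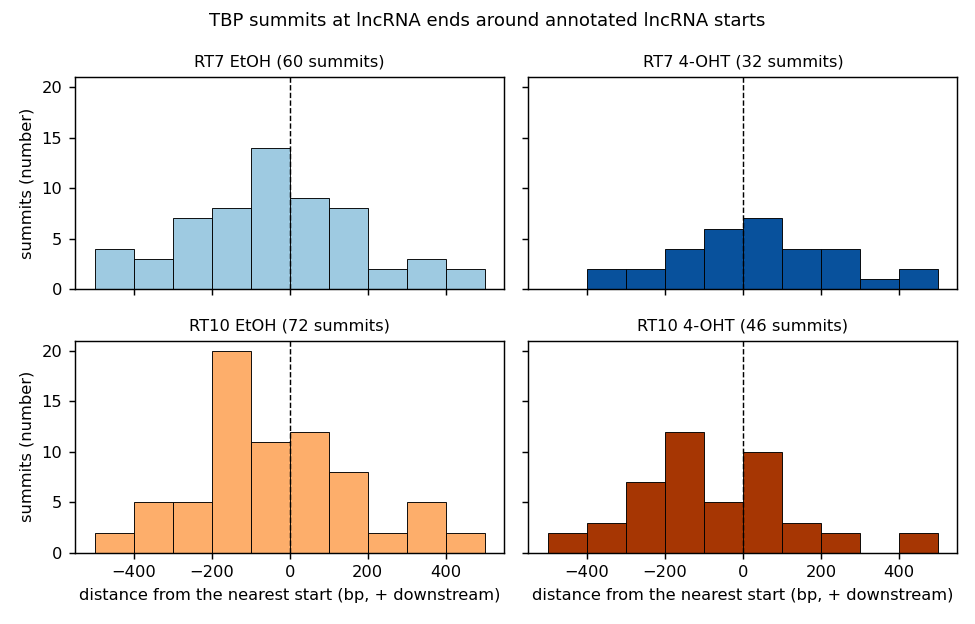
Number of TBP summits at lncRNA ends (vertical axis) by distance from the nearest annotated lncRNA start (horizontal axis, bp, positive downstream, 100 bp bins), for summits within 500 bp of a start, 1 panel per list. The 60, 32, 72 and 46 summits spread on both sides of the start (dashed line).

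The lncRNA sites with the highest mean percentile included 3 with a summit in all 4 lists. 1110038B12Rik (chromosome 17, 34950235 to 34952471) scored 34.7, 21.3, 35.3 and 37.1, with summits 208, 355, 168 and 200 bp upstream of its start. All 4 percentiles were between 92.4 and 96.2. Gm26802 (chromosome 7, 19298260 to 19300793), whose nearest protein-coding neighbour is the immediate early gene Fosb at 1882 bp, scored 25.6, 10.8, 48.1 and 29.1, with summits 55, 21, 106 and 140 bp upstream of its start. Its percentile was 76.8 in RT7 4-OHT and between 92.9 and 97.9 in the other lists. C230035I16Rik (chromosome 13, 23427976 to 23431017) scored 45.9, 18.9, 42.3 and 29.1 at percentiles from 90.3 to 98.1, but met the rule in RT7 EtOH alone, with a tRNA gene end 510 bp away there.

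Other sites differed widely in rank between lists. Gm38896 (chromosome 6, 124919590 to 124920738) scored 29.4, 3.24, 38.1 and 17.0, at percentiles 94.4, 26.2, 96.3 and 86.3, so the RT7 4-OHT list alone held it at a low rank. Neat1 (chromosome 19, 5824708 to 5845480), the RNA scaffold of paraspeckles, scored 38.8, 21.1 and 48.5 in RT7 EtOH, RT7 4-OHT and RT10 EtOH. The RT10 4-OHT list had no summit within 250 bp there, its nearest being 969 bp away. Mir22hg (chromosome 11, 75461539 to 75466690), the host of a microRNA, scored 18.5, 6.34, 15.6 and 9.35, with summits 78, 82, 41 and 193 bp upstream of its start.

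**Figure D3:**
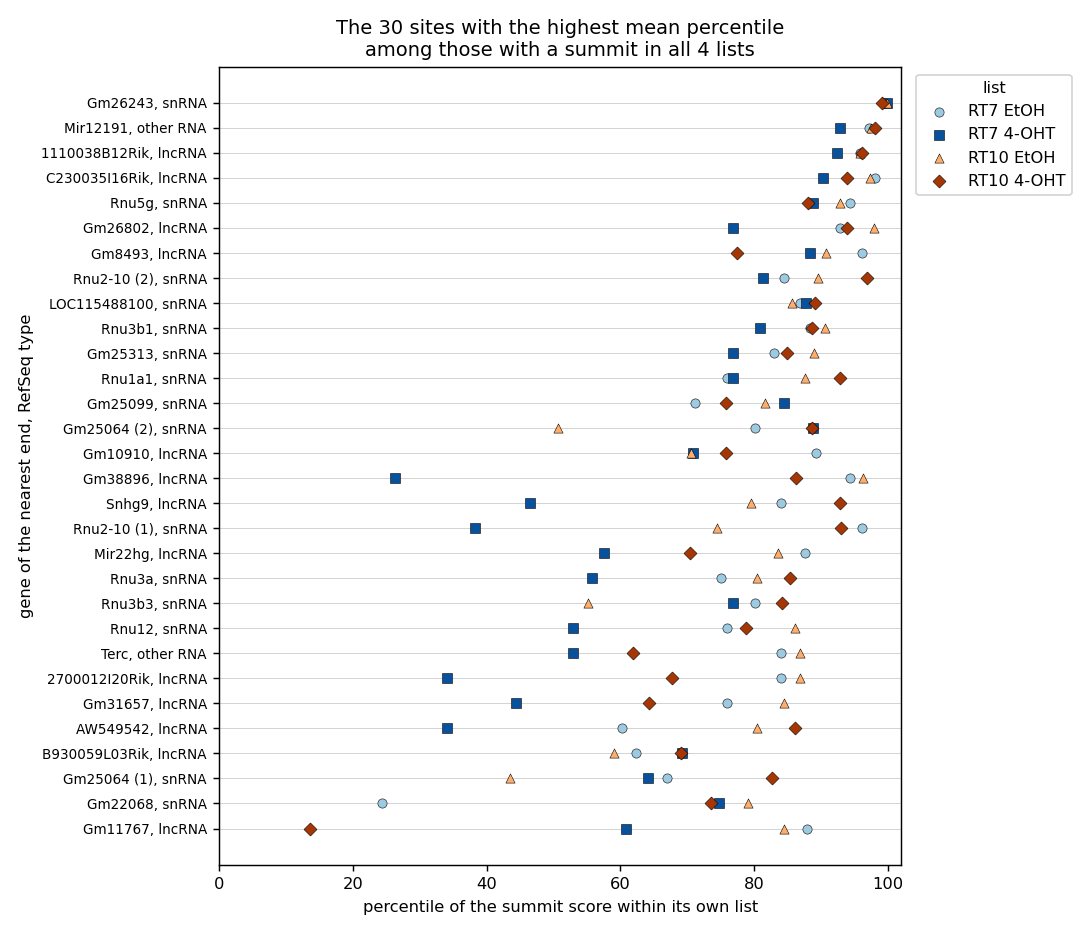
Percentile of the summit score within its own list (horizontal axis) for the 30 sites with the highest mean percentile among the 50 with a summit in all 4 lists (vertical axis, gene and RefSeq type; a number in brackets tells apart sites at the same gene). Each point is 1 list; Gm26243 lies above 99 in every list, while Gm38896 spreads from 26.2 to 96.3.

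The fixed list of snoRNA host genes was chosen by symbol (Snhg genes, Gas5, Zfas1, Dancr and Epb41l4aos). Hosts with other symbols are not in it or in the host counts below. Of its 22 genes, 10, 7, 9 and 9 had a summit and 6, 4, 5 and 5 one that met the rule. Snhg9 (chromosome 17, 24719531 to 24719965), which hosts Snora78, had its summits 25, 25, 25 and 29 bp upstream of the start, with scores of 15.9, 4.91, 13.4 and 26.9. The 3 positions outside RT10 4-OHT were identical, and an inner start of a protein-coding gene lay 73 or 69 bp away. Snhg12 (chromosome 4, 132308678 to 132311024) scored 5.08, 8.15, 5.74 and 11.7, and Snhg5 (chromosome 9, 88521052 to 88522897) scored 2.23, 6.71, 5.45 and 22.8. Both had a summit in all 4 lists.

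The other 3 hosts with member summits were each missing from at least 1 list, Snhg8 and Snhg3 from 4-OHT lists and Snhg7 from the RT10 EtOH list. Snhg8 (chromosome 3, 123507552 to 123508336) scored 17.1 in RT7 EtOH, 24.8 in RT10 EtOH and 10.7 in RT10 4-OHT. In RT7 4-OHT the nearest summit was 1930861 bp away. Snhg3 (chromosome 4, 132351933 to 132353686) scored 9.42 and 4.93 in the EtOH lists of RT7 and RT10, with the nearest 4-OHT summits 44949 and 44907 bp away. Snhg7 (chromosome 2, 26637176 to 26640244) scored 8.42 in RT7 EtOH, 3.1 in RT7 4-OHT and 1.39 in RT10 4-OHT, and its nearest RT10 EtOH summit was 717 bp away.

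The TATA-like letters printed above were found in 4 of the 6 hosts with member summits (Snhg5, Snhg7, Snhg8 and Snhg12), when only the stretch from 40 to 15 bases before a start was read. They were found in 2 of 4 hosts whose summits all lay at protein-coding ends (Gas5 and Snhg1) and in 0 of 9 hosts without a summit, out of 19 hosts in the promoter table. This count was made after the sequences had been seen, and it was not tested. Over all 95 member promoters that could be read, TATAAA stood in that stretch in 6.32% (2.35 to 13.2), against 2.48% of all 32851 promoter windows and 1.52% of the 11588 lncRNA and other noncoding windows. Read over the whole 300 bases on both strands, TATAAA was in 14.7% (8.3 to 23.5) of member windows and 13.6% of all windows.

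GC-rich letters were more common in member windows than in noncoding windows as a whole. CCGCCC, the core of the GC box bound by Sp1, was in 49.5% (39.1 to 59.9) of member windows, 35.7% of all windows and 16.3% of noncoding windows. The median GC content was 55.3%, 52.7% and 48.3% in the same order, and its part in the CCGCCC share was not tested. CCAAT was in 36.8% (27.2 to 47.4) against 37.4% of all windows, and the E-box CACGTG in 10.5% (5.16 to 18.5) against 7.15%. ACTACAA, from the ZNF143 motif, was in 5.26% (1.73 to 11.9) against 3.24%, TATATAA in 2.11% (0.256 to 7.4) against 3.24%, and GTTCGA, from the B box of tRNA genes, in 1.05% (0.0266 to 5.73) against 2.53%. These intervals include the share of all windows for each motif but CCGCCC.

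microRNA genes had few members. The 4 sequences below are the 3p arms of microRNAs at member summits that belong to families known from pluripotent cells, shown to compare their seeds, in capitals (bases 2 to 8; RefSeq, GRCm38.p6).
mmu-miR-302b-3p: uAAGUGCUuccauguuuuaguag
mmu-miR-302c-3p: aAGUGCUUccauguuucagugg
mmu-miR-294-3p: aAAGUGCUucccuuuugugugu
mmu-miR-295-3p: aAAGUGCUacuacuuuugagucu

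miR-302b-3p, miR-294-3p and miR-295-3p share the seed AAGUGCU, and miR-302c-3p has AGUGCUU. At Gm51018, which holds Mir302b and Mir302c, summits lay 304, 167 and 209 bp upstream of the start in RT7 4-OHT, RT10 EtOH and RT10 4-OHT. Their scores were 2.5, 4.93 and 2.62. No RT7 EtOH summit was closer than 1991705 bp. Mir294 and Mir295 had a single summit, in RT7 EtOH (score 3.01), at the end of D7Ertd143e (chromosome 7, 3218784 to 3221015). These scores were all in the lower part of their lists. Of 1193 microRNA genes and hosts, 3, 3, 5 and 4 had a member summit.

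Mir12191 (chromosome 18, 34759519 to 34759597) was the high-ranking exception, with scores of 39.8, 21.4, 43.8 and 48.5. Its RT7 EtOH summit also lay within 500 bp of a protein-coding end and was no member. It lies inside the span of Fam53c, and the site has Gm3561 as a further gene. The starts used here held no protein-coding start on chromosome 18. Nearness to an inner start could thus not be checked, and the counts of members at inner starts leave this site out.

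Among other RNA genes, Terc (chromosome 3, 96414437 to 96414833), the RNA template of telomerase, scored 15.9, 5.76, 18.7 and 7.79 and had a summit in all 4 lists, 89, 170, 115 and 72 bp from its end. Scarna2 (chromosome 3, 108554342 to 108554402), which guides RNA modification in Cajal bodies, scored 4.68, 2.92, 7.73 and 5.06. Rn7s2 (chromosome 12, 69361183 to 69361481), a gene of the RNA of the signal recognition particle, scored 7.45, 5.0 and 11.2 in RT7 EtOH, RT10 EtOH and RT10 4-OHT. It had no summit in RT7 4-OHT.

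Of 49 known lncRNAs on the fixed list, 5, 3, 7 and 4 had a member summit. Platr22 (chromosome 1, 136696211 to 136725728), one of the pluripotency-associated transcripts, scored 9.39 in RT7 EtOH and 12.9 in RT10 EtOH. In RT10 4-OHT a summit of score 11.2 lay 259 bp from the RT10 EtOH one, just past the 250 bp limit for a shared site, and in RT7 4-OHT the nearest was 461967 bp away. Platr29 had summits in the EtOH lists alone (3.83 and 7.28), and Platr9 in all but RT7 4-OHT (4.31, 4.06 and 2.88). Kcnq1ot1, an imprinted antisense transcript, was in RT10 EtOH alone (4.17).

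Pseudogenes were nearly free of TBP summits that met the rule. The 5 member sites were at Gm47052, Gm24000, Gm29257, Gm6054 and Rps4l, and none was in all 4 lists. Gm47052 (chromosome 13, 98973354 to 98976916) had the highest scores, 9.22 in RT10 EtOH and 7.27 in RT10 4-OHT. None of 318 ribosomal protein pseudogenes had a summit in any list. Of 8 histone pseudogenes 3 had a summit in each list, all at protein-coding ends and so not members.

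The lines were then compared between treatments. In RT7 cells 60 of 129 EtOH members had a 4-OHT summit within 250 bp (46.5%, 37.7 to 55.5), against 38.7% of all EtOH summits. In RT10 cells 85 of 157 did (54.1%, 46.0 to 62.1), against 48.1% of all. In both lines the interval of the members included the share of all summits, so at 250 bp the members as a whole were not set apart. With 1000 bp allowed, the members' share was 58.1% in RT7 (49.1 to 66.8, against 46.0% of all) and 65.6% in RT10 (57.6 to 73.0, against 55.6% of all), and both intervals lay above the share of all summits. Such shares depend on how many summits each list holds, and the 4-OHT lists were shorter in both lines.

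Within the members the share kept was higher at snRNA than at lncRNA ends in both lines. At snRNA ends 25 of 41 RT7 summits (61.0%, 44.5 to 75.8) and 30 of 41 RT10 summits (73.2%, 57.1 to 85.8) were kept. At lncRNA ends 33 of 85 (38.8%, 28.4 to 50.0) and 50 of 104 (48.1%, 38.2 to 58.1) were kept. The intervals of the 2 classes overlapped in each line at 250 bp. At 1000 bp they did not, with snRNA shares of 82.9% (67.9 to 92.8) and 90.2% (76.9 to 97.3) and lncRNA shares of 45.9% (35.0 to 57.0) and 55.8% (45.7 to 65.5). The difference was not tested. Within 1000 bp a summit on the other flank of a short snRNA gene, or at a neighbouring copy, also counts as a match. At Gm23444, for example, an RT7 EtOH summit on 1 side was matched by an RT7 4-OHT summit 755 bp away, on the other side. At both distances the snRNA intervals lay above the share of all summits, and the lncRNA intervals included it. For reference, 41.5% and 48.5% of summits at protein-coding ends and 71.2% and 77.0% of those at tRNA gene ends were kept in RT7 and RT10.

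**Figure D4:**
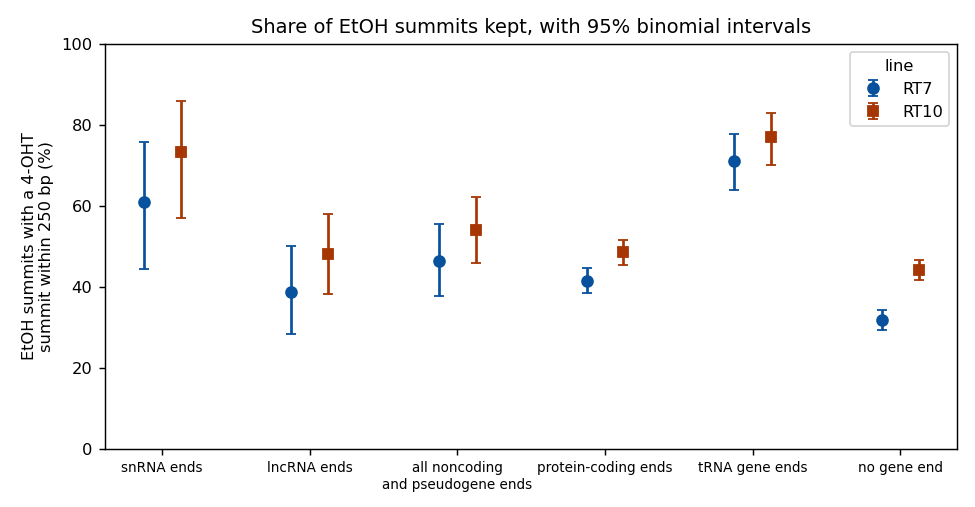
Share of EtOH summits with a 4-OHT summit of the same line within 250 bp (vertical axis, %) by the kind of gene end (horizontal axis). Points are shares from 1 pair of lists per line and bars exact 95% binomial intervals (counting error only); snRNA ends stand at 61.0% and 73.2% and lncRNA ends at 38.8% and 48.1%.

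High-ranking members were mostly kept, as high-ranking summits were in general. Of EtOH members with a score of at least 10, 34 of 40 in RT7 (85.0%, 70.2 to 94.3; 77.3% of all such summits) and 37 of 46 in RT10 (80.4%, 66.1 to 90.6; 82.7% of all such summits) had a 4-OHT summit within 250 bp. For snRNA members at that score the counts were 13 of 14 and 19 of 20, and for lncRNA members 20 of 25 and 16 of 24. In the other direction 59 of 72 RT7 4-OHT members (81.9%, 71.1 to 90.0; 75.0% of all) and 83 of 108 RT10 4-OHT members (76.9%, 67.8 to 84.4; 68.2% of all) had an EtOH summit within 250 bp. Between the EtOH lists of the lines, 94 of 129 RT7 members (72.9%; 65.0% of all) and 97 of 157 RT10 members (61.8%; 55.7% of all) recurred in the other list.

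Joined over the lists within 250 bp, the members formed 216 sites, of which 80, 47, 39 and 50 had a summit in 1, 2, 3 and 4 lists. The share in all 4 was 23.1% (17.7 to 29.4), against 18.1% of all 4593 sites. It was 43.4% (29.8 to 57.7; 23 of 53) for snRNA sites and 16.2% (10.7 to 23.2; 24 of 148) for lncRNA sites, whose intervals did not overlap. Several snRNA sites belong to 1 gene or array and are not independent.

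Of 103 sites present in both EtOH lists, 50 were present in both 4-OHT lists, 22 in that of RT10 alone, 11 in that of RT7 alone and 20 in neither. These shares were 48.5% (38.6 to 58.6), 21.4% (13.9 to 30.5), 10.7% (5.45 to 18.3) and 19.4% (12.3 to 28.4). Of all 1766 TBP sites in both EtOH lists, joined within 250 bp, 47.1%, 23.7%, 7.02% and 22.2% had these patterns. Each of the 4 intervals included the share of all sites. The 20 comprised 15 lncRNA, 4 snRNA and 1 pseudogene site. The 50 comprised 24 lncRNA, 23 snRNA and 3 other RNA sites.

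Sites without any 4-OHT summit within 1000 bp were less common among the members than among all TBP sites, and the snRNA sites had the lower shares of the 2 main classes. In RT7 they were 58 of 137 EtOH sites (42.3%, 33.9 to 51.1), against 54.1% of all EtOH sites. They comprised 47 of 88 lncRNA sites (53.4%, 42.5 to 64.1) and 8 of 43 snRNA sites (18.6%, 8.39 to 33.4), so the lncRNA interval included the share of all sites and the snRNA interval lay below it. Several snRNA sites share a gene or array, which the intervals in either line do not allow for. A 4-OHT summit on the other flank of the gene, or at a neighbouring copy, also takes an snRNA site out of these counts. The highest EtOH scores among the 58 were at 1700096K18Rik (25.6), Snhg8 (17.1) and the 164 bp snRNA gene Gm22513 (11.5). All 3 had a summit in the RT10 4-OHT list (10.2, 10.7 and 9.45). The next was Gt(ROSA)26Sor (9.7; chromosome 6, 113067428 to 113077244), the locus that carries the Cre in these cells, with a RT10 EtOH summit 296 bp away and the nearest RT10 4-OHT summit 229818 bp away.

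In RT10 54 of 162 EtOH sites had no 4-OHT summit within 1000 bp (33.3%, 26.1 to 41.2), against 44.3% of all. They comprised 46 of 107 lncRNA sites (43.0%, 33.5 to 52.9) and 4 of 43 snRNA sites (9.3%, 2.59 to 22.1). As in RT7, the lncRNA interval included the share of all sites and the snRNA interval lay below it. The highest EtOH scores were at Gm10433 (15.2; chromosome 12, 100187968 to 100193538), Gm33560 (12.6), 4930583K01Rik (11.8), Gm36909 (11.3) and Gm39001 (11.1). Of these 5, Gm33560, 4930583K01Rik and Gm39001 also had a RT7 EtOH summit, with scores of 3.01, 7.45 and 15.9, and Gm39001 alone had a RT7 4-OHT summit within 250 bp (2.3).

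Sites found with 4-OHT and not with EtOH were fewer. In RT7 6 of 78 4-OHT sites had no EtOH summit within 1000 bp (7.69%, 2.88 to 16.0), against 13.1% of all 4-OHT sites, and their scores were at most 3.95, below the list's median of 5.52. In RT10 8 of 114 had none (7.02%, 3.08 to 13.4), against 21.5% of all. All 8 were at lncRNA genes, led by Gm30455 (7.27; chromosome 2, 180721657 to 180727277), which stood above the list's median of 5.95, and Dgkeos (5.2), which stood below it. Sites in both lists of 1 line and in neither of the other were led by Gm39319 in RT7 (7.45 and 1.41 in EtOH and 4-OHT) and by Gm13580 (9.63 and 2.88) and Gm25939 (9.22 and 3.4) in RT10.

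The sites differed in their distance from protein-coding genes. Of 216 sites, 20 had a protein-coding end within 1000 bp, 48 one within 2000 bp and 92 none within 10000 bp, and 67 lay inside the span of a protein-coding gene. A tRNA gene end lay within 5000 bp of 13 sites, 9 of them lncRNA and 4 other RNA sites. Just inside the 500 bp limit were Mir1894 in RT10 EtOH (500 bp, score 2.44) and C330020E22Rik in RT7 EtOH (500 bp, 3.01), and just outside were Gm20005 in RT7 EtOH (501 bp, 3.01) and Gm39001 in RT7 EtOH (507 bp, 15.9).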

How the data were processed

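CUT&RUN for TBP covered the RT7 and RT10 lines with EtOH or 4-OHT, in 8 TBP libraries and 4 IgG libraries per the labels. The submitters' processing notes name cutadapt 4.0, Bowtie2 2.4.4, SAMtools 1.15.1, MACS2 2.2.7.1, bedtools and deepTools with mm10, without roles or parameters. The deposited peak summits carry a −log10 q-value of TBP over IgG as their score, made by the authors; 1 list came with each line and treatment, and pooling is not stated. For the IgG libraries titled RT7 EtOH and RT10 4-OHT title and treatment label disagree, and groups follow the titles. The files give no read depth and thus no precision from it, and a change in how well a list was called would move its length and scores.

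Members and lists were chosen with earlier results of these data known. Summits were matched to the outer ends of 49997 RefSeq genes (GRCm38.p6), which carry no strand, and 2 mitochondrial summits per list were left out. Starts and promoter sequences came from the RefSeq promoter table, in which 124 of 202 genes at member summits were matched by symbol. Of these, 95 had a start within 500 bp of a member summit and their promoters were described. Summits of 2 lists within 250 bp counted as shared. Shares have exact Clopper-Pearson 95% intervals, and no test of treatments was run. Named were all snRNA sites, per other type the 6 sites in the most lists with the highest mean percentile, per line the 8 highest sites in 1 treatment without a summit of the other within 1000 bp, the 5 highest sites of 1 line alone, members of the fixed lists, up to 4 sites per motif, and the 3 summits each side of the 500 bp limit in each list; the text gives a selection of them, and further ones by their values. Alternatives were 100, 500 or 1000 bp for a shared summit, 250 or 1000 bp from a gene end, a minimum score of 10, shortened lists, and gene models named Gm or LOC left out; the order of tied scores in shortened lists and the removal of members at inner protein-coding starts were added after seeing the data. Python 3.11.15, NumPy 2.4.6, pandas 2.3.3, SciPy 1.17.1 and matplotlib 3.10.9 were used, and the matching of summits was tested on simulated data.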

Additional observations from a re-analysis of the deposited data

Results flagged for a closer look

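A total of 5 of 216 sites were present in the EtOH list of 1 line and the 4-OHT list of the other. They were absent within 250 bp from the remaining lists, so that at 250 bp the lines went opposite ways. With 1 list per group this difference was not tested. The share of all TBP sites with such a pattern was not computed, so the count of 5 cannot be set against it. D230017M19Rik had an RT7 EtOH score of 3.01 and an RT10 4-OHT score of 10.2, and Gm35048 had 4.68 and 4.53 in those lists. Gm25099, a 116 bp snRNA gene, had 5.57 and 9.23 at this site, beside a second site present in all 4 lists. 4930578M01Rik had an RT7 4-OHT score of 2.3 and an RT10 EtOH score of 6.77 near its start. Malat1, a lncRNA of nuclear speckles, had 3.1 and 8.6 in those lists. Near the other end of 4930578M01Rik, member summits scored 6.71 in RT7 4-OHT, 7.49 in RT10 EtOH and 3.68 in RT10 4-OHT. At Malat1 and Gm25099 every list had a summit within 1000 bp, so there the lists differed in summit position at 250 bp and not in holding a summit; at D230017M19Rik this held for RT10 EtOH, while RT7 4-OHT had none within 1000 bp. At Gm35048 and at the start of 4930578M01Rik the lists without a summit had none within 1000 bp either.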

How the results depend on the processing

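No paired analysis was possible because each line and treatment has 1 list, which carries no replicate number; for the same reason no replicate could be left out. Values are given as RT7 and RT10. With a shared distance of 100 bp, EtOH members kept were 27.9% and 38.9% (all summits 27.1% and 33.6%), 4-OHT members with an EtOH summit 50% and 54.6% (all 52.4% and 47.7%, so that in RT7 members were below all, unlike at 250 bp), members shared between EtOH lists 48.1% and 41.4% (all 47.0% and 40.4%), lncRNA members kept 20% and 33.7%, snRNA members kept 43.9% and 53.7%, and sites in all 4 lists 21. With 500 bp, RT10 4-OHT members with an EtOH summit were 86.1% (all 75.0%) and RT7 EtOH members shared with RT10 EtOH 81.4% (all 71.6%). With 1000 bp the values were 58.1% and 65.6% kept (all summits 46.0% and 55.6%, below both members' intervals, whereas at 100, 250 and 500 bp the intervals included it), 90.3% and 92.6% in the other direction (all 86.8% and 78.4%), 87.6% and 73.2% between EtOH lists (all 74.5% and 63.5%), and 82.9% and 90.2% for snRNA members. A wider distance can only add matches, by construction, and at short snRNA genes these can lie on the other flank of the gene. With a gene end distance of 250 bp, RT7 members kept were 56.6%, and the cause was not tested.

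With a score of at least 10 in both lists, members numbered 40, 17, 46 and 33 (RT7 EtOH, RT7 4-OHT, RT10 EtOH, RT10 4-OHT). Fewer summits entered. At this setting lncRNA members kept were 28% in RT7 and 25% in RT10, against 38.3% and 51.0% of all EtOH summits. RT10 4-OHT members with an EtOH summit were 66.7% (all 74.0%), and sites in all 4 lists numbered 12. With EtOH lists shortened to the 4-OHT length, members kept were 67.1% and 65.2% (68.1% and 64.9% with tied scores in reverse order; all summits 59.0% and 59.6%, inside the members' intervals), and in RT7 lncRNA and snRNA members kept were 61.4% and 79.2% (60.5% and 83.3%); the cause was not tested. With all lists shortened to the shortest, RT7 EtOH and RT10 EtOH held 70 and 68 members (69 and 67). Without gene models named Gm or LOC, members numbered 53, 39, 76 and 54. From 40 to 15 bases before the start, TATAAA was in 6.32% of member promoters, ACTACAA in 1.05%, GTTCGA in 0%, CCGCCC in 7.37%, CACGTG in 1.05% and CCAAT in 8.42%, since a shorter stretch was read. None of the 15 values recomputed with a gene end distance of 1000 bp, or with members at inner protein-coding starts left out, moved beyond its interval or 1.5 times. In each of the settings above with both classes given, the share of snRNA members kept was above that of lncRNA members. Read depth is unknown, so it could not be set against any absence.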
